A study of Ginkgo biloba with 7 samples.

Results

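The 153 transcripts described here were the most abundant of the Ginkgo biloba ovule whose level differed less than 4-fold between 2 stages around pollination. They were taken from the 200 genes with the highest mean FPKM over both stages (fragments scaled to gene length and to the fragments mapped in the library), out of 43456 genes listed. A gene of these 200 was kept when its FPKM + 1 in the later library was above 0.25 and below 4 times that in the earlier one, and when it was not in the series' list of miRNA target genes. The members were thus chosen on the same 2 libraries in which they are described, so the values below are descriptions and none was tested.

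The series measured ovules from 3 to 5 healthy trees of the cultivar Fozhi, about 20 years old and growing outdoors. Pollinated ovules, labelled PN, were collected 1 day after pollination, and mature ovules, labelled PD, while they were secreting the pollination drop. The labels give 2 RNA-seq samples per stage. The gene values of 1 library per stage, PN1 and PD1, could be matched by name and were used, so no value has a replicate error and a difference is one between 2 libraries. All samples were whole ovules, in which fewer cells of a type and less RNA per cell cannot be told apart. No unpollinated ovule of the later stage was among the samples, so pollination and the time between the stages cannot be told apart either.

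The ovule of Ginkgo is borne naked on a stalk, and at receptivity the nucellus releases a sugary drop at the micropyle that catches airborne pollen and is then withdrawn, carrying the pollen inwards. In a sequenced tissue a small set of genes usually takes a large part of all mRNA, and when such a gene changes, the shares of all other genes shift with it. The share held by the top transcripts and its concentration in a few of them therefore set the scale on which every other gene is read. The files do not pair the gene IDs with names or functions, so the IDs stand as deposited, no role is given to any of them, and no functional list or tissue marker could be formed or checked.

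Together the 153 members held 25.4% of the summed FPKM of the PN library and 27.7% of that of the PD library, although they are a small part of the genes listed. The sum over all genes was 1051676 FPKM in PN and 1094735 FPKM in PD. The members accounted for 267460 FPKM in PN and 303627 FPKM in PD, a difference of -2.30 percentage points in share (PN minus PD). A single transcript, Gb_11181, made up more than that gap. It stood at 58749 FPKM in PN and 112735 FPKM in PD, or 5.59% and 10.3% of the sums, a difference of -4.71 percentage points. It was the most abundant gene of both libraries. The other 152 members went the opposite way, with 19.8% of the summed FPKM in PN and 17.4% in PD, a difference of 2.41 percentage points.

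**Figure D1:**
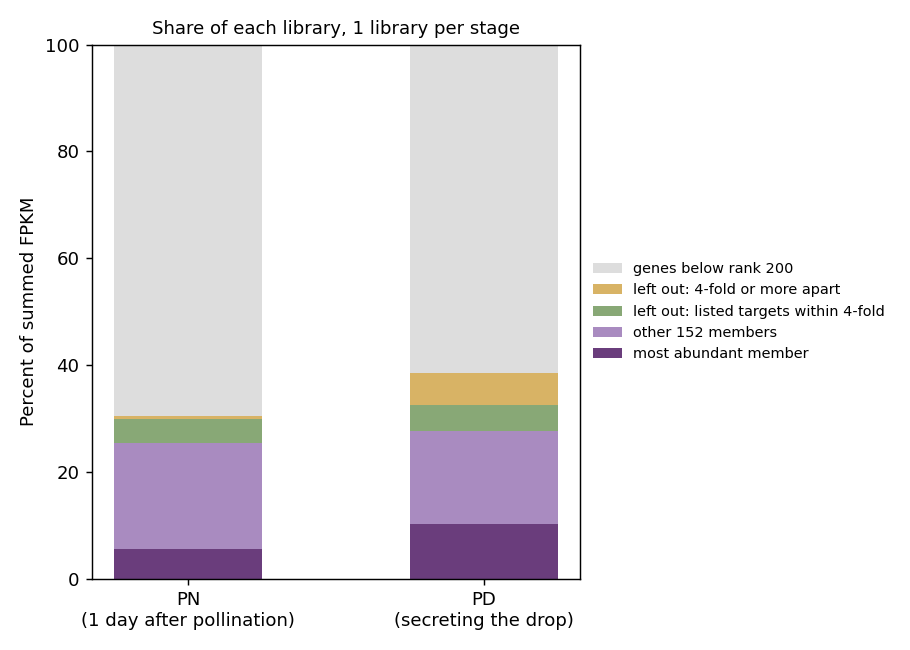
Stacked bars give the percent of the summed FPKM (y axis, from 0 to 100) held by each class of genes in the PN and PD libraries, with 1 library per stage and hence no error bars. The most abundant member is at 5.59% in PN and 10.3% in PD, while the other 152 members take 19.8% in PN and 17.4% in PD.

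Taking Gb_11181 out of the total as well as out of the members narrowed the difference in the others without closing it. The rest of the library then summed to 992926 FPKM in PN and 982000 FPKM in PD, and the 152 members held 21.0% of it in PN and 19.4% in PD. This reduced sum still held the 17 genes left out by the ratio rule, with 6671 FPKM in PN and 65578 FPKM in PD. They lower the members' share more in PD than in PN, so much of the remaining difference is one of the total. Within this reduced sum, the larger share in PN lay mainly further down the list, and the values of each band depend on the same total. Members ranked 51 and below by mean FPKM, 103 genes, held 9.99% of this reduced sum in PN and 8.43% in PD, and members 2 to 10 held 4.12% in PN and 3.87% in PD. For members 11 to 50 the direction depended on the total: they held 6.91% of the reduced sum in PN and 7.13% in PD, but 6.53% of the full sum in PN and 6.40% in PD.

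The members' FPKM was less concentrated in PN than in PD. The effective number of members, the inverse Simpson index that equals the number of genes if all were equally abundant, was 18.4 in PN and 7.02 in PD. The Gini coefficient, which runs from 0 for equal levels towards 1 for a single dominant gene, was 0.462 in PN and 0.589 in PD. In PN, 25 members were enough to hold 50% of the members' FPKM, and in PD 10 were. Gb_11181 alone held 22.0% of the members' FPKM in PN and 37.1% in PD.

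Most of this difference went with that gene. Without it the effective number of the other 152 members was 97.6 in PN and 86.5 in PD, their Gini coefficient was 0.322 in PN and 0.360 in PD, and 50% of their FPKM was held by 43 genes in PN and 37 in PD. The direction stayed the same. The gap was much narrower for the Gini coefficient and for the number of genes holding 50%. For the effective number it narrowed as a ratio but hardly as a difference. Over all listed genes, 725 in PN and 503 in PD held 50% of the sum.

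**Figure D2:**
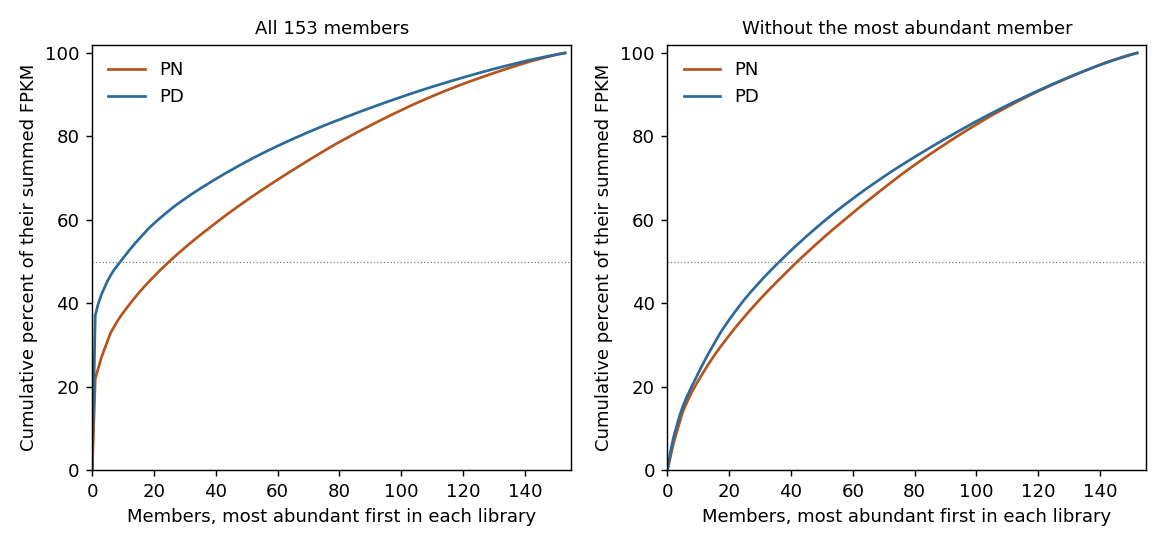
Cumulative percent of the members' summed FPKM (y axis) against the number of members counted from the most abundant in each library (x axis), for all 153 members on the left and without Gb_11181 on the right; the dotted line marks 50%. The PD curve lies above the PN curve over most of both panels, but not at their far end. It crosses 50% at 10 members, against 25 in PN, on the left and at 37, against 43 in PN, on the right.

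Among the members, the most abundant stood far above the next one. Gb_05948, the second member, had 6750 FPKM in PN and 8674 FPKM in PD. Gb_12297 had 6898 FPKM in PN and 5027 FPKM in PD, and was thus the second most abundant member of the PN library. Gb_16085 was nearly the same in both, with 5135 FPKM in PN and 4995 FPKM in PD. Gb_31121, like Gb_11181, was lower after pollination, with 3500 FPKM in PN and 6510 FPKM in PD. These 5 members together held 7.71% of the sum in PN and 12.6% in PD. Below them the levels were more even: the median member was at 1152 FPKM in PN and 888 FPKM in PD, the quartiles were 790 and 1540 FPKM in PN and 679 and 1367 FPKM in PD, and the lowest was at 317 FPKM in PN and 393 FPKM in PD.

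Stable holds for these genes only in the wide sense of the 4-fold limit. Differences are given as log2(FPKM + 1) in PN minus that in PD, a scale that understates differences of low genes but hardly touches levels as high as these. Of the 153 members, 111 (72.5%) lay within 2-fold, 71 within 1.5-fold and 49 (32.0%) within 1.25-fold. At least 2-fold higher in PN were 28 members (18.3%), against 9.27% of the 21308 genes compared (those averaging 1 FPKM or more). At least 2-fold lower were 14 members (9.15%), against 6.86% of those genes. In either direction 42 members reached 2-fold, against 16.1% of all genes compared. The ratio rule removed genes 4-fold or more apart from the members but not from all genes compared. The counts therefore stand side by side and nothing is read from them.

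The genes next in abundance gave a nearer comparison. Of the genes ranked 201 to 1000, 668 met the same ratio and target rules. Of the members 72.5% lay within 2-fold, against 538 (80.5%) of these 668. Within 1.5-fold were 46.4% of the members and 371 (55.5%) of the 668, while 32.0% of the members and 32.8% of the 668 lay within 1.25-fold. The SD of the difference over genes was 0.82 for the members and 0.73 for the genes ranked 201 to 1000.

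More members were higher in PN than lower. Of the 153, 96 were higher and 57 lower, where 56.9% of all genes compared were higher. The median difference was 0.22 for the members and 0.11 for all genes compared, so the median member lay 0.11 above the median gene, and 85 members (55.6%) lay above it. The genes ranked 201 to 1000 under the same rules gave similar values: 424 of the 668 (63.5%) were higher in PN, their median difference was 0.24, and 57.8% lay above the median gene. The 96 higher members held 14.1% of the sum in PN and 8.60% in PD. The 57 lower ones held 11.3% in PN and 19.1% in PD, and without Gb_11181 the remaining 56 held 5.73% in PN and 8.84% in PD. The 49 members within 1.25-fold summed to 63069 FPKM in PN and 61898 FPKM in PD.

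The split depended on the scaling of the libraries. As shares of the summed FPKM, 99 members were higher in PN and 54 lower, where 59.9% of all genes compared were higher, and 29 members were past 2-fold upwards and 12 downwards (10.4% and 6.25% of all genes). With equal sums without the 10 most abundant genes, 88 members were higher and 65 lower (53.4% of all genes higher), and 23 members were past 2-fold upwards and 17 downwards (8.18% and 7.55% of all genes). With median-of-ratios scaling, which brings the median gene near 0, 85 members were higher and 68 lower (50.3% of all genes higher), and 21 were past 2-fold in each direction (7.36% of all genes upwards and 8.30% downwards). Each scaling multiplies every gene of a library by the same factor, so members and other genes move together under it.

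The largest differences inside the limits lay well below the first rank. Gb_35488 had 1238 FPKM in PN and 406 FPKM in PD, 3.04-fold higher in PN on the FPKM + 1 scale. Novel00190, one of the gene models without the prefix Gb, had 1515 FPKM in PN and 521 FPKM in PD, 2.90-fold higher in PN. In the other direction, Gb_09283 had 1097 FPKM in PN and 4011 FPKM in PD, 3.65-fold lower in PN, and Gb_37761 had 317 FPKM in PN and 1041 FPKM in PD, 3.27-fold lower in PN. The 28 members past 2-fold upwards had a median of 1415 FPKM in PN and 585 FPKM in PD, and the 14 past it downwards had a median of 610 FPKM in PN and 1523 FPKM in PD.

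**Figure D3:**
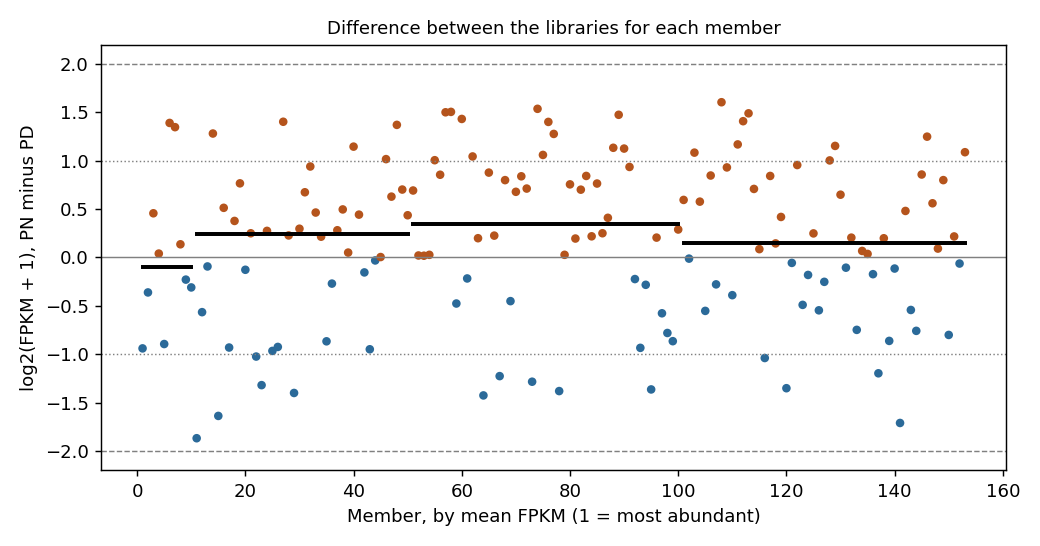
Each point is a member, ordered by mean FPKM (x axis, 1 the most abundant), with its difference in log2(FPKM + 1) between PN and PD (y axis); points above 0 are higher in PN, dotted lines mark 2-fold, dashed lines the 4-fold limit, and black bars the median of members 1 to 10, 11 to 50, 51 to 100 and 101 to 153. The medians are -0.09, 0.24, 0.35 and 0.14, and each of these bands has points on both sides of 0.

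The order of the members was only loosely shared by the libraries. Spearman's rho between PN and PD over the 153 members was 0.343, and Pearson's r of log2(FPKM + 1) was 0.633, or 0.493 without Gb_11181. Over all 21308 genes compared rho was 0.908. These are descriptions across genes of the same 2 libraries, and the rule itself set the narrow range of levels among the members. Of the members, 135 were in the PN library's own top 200 and 125 in that of PD, 107 were in both, 28 in that of PN alone and 18 in that of PD alone. Over all genes, 130 were in the top 200 of both libraries. The members were chosen by their mean and ratio in these libraries, so nothing is read from the overlap. Ranked within each library, members reached down to place 498 in PN and 331 in PD.

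The limits of the rule fell as follows. Gb_29693, the last gene inside the top 200, had a mean of 641 FPKM (872 in PN and 410 in PD), and Gb_21106, the first outside, had a mean of 640.5 FPKM (568 in PN and 712 in PD). At the lower ratio limit, Gb_09283 was the nearest member, and Gb_21019, with 367 FPKM in PN and 1503 FPKM in PD (4.09-fold lower), the nearest gene left out. At the upper limit the nearest member was Gb_35488, and 0 of the top 200 lay beyond it. All 17 genes of the top 200 left out by the ratio were lower in PN, where they held 0.634% of the sum, against 5.99% in PD. The share of all genes compared that lay beyond 4-fold each way is not given here. At 2-fold, 9.27% of those genes were higher in PN and 6.86% lower.

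**Figure D4:**
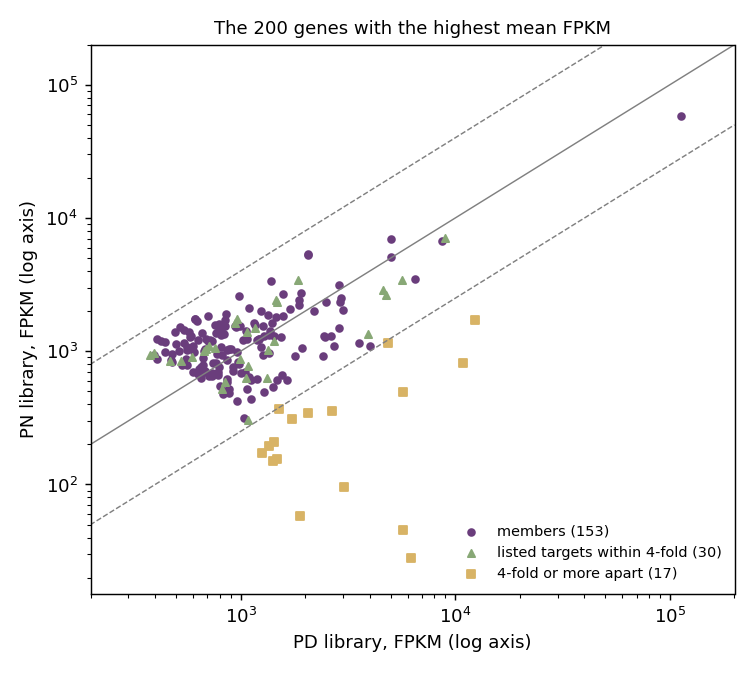
FPKM in PN (y axis) against FPKM in PD (x axis), both on log axes, for the 200 genes with the highest mean FPKM; the solid line marks equal levels and the dashed lines the 4-fold limits. The 153 members and the 30 listed targets lie between the dashed lines, the 17 squares, 5 of which are also listed targets, lie below the lower one, and no gene lies above the upper one.

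The target rule removed more genes than the ratio rule. Of the top 200, 35 (17.5%) were listed as miRNA targets, against 3.74% of the genes compared. The list belongs to a sample of mixed ovules of both stages. Whether being listed goes with abundance, on which the top 200 were chosen, was not tested, so nothing is read from this contrast. The lists of 25 miRNA families or single predicted miRNAs named them. Among these were miR396 with 5 of its 99 listed genes, miR166 with 4 of 44, and miR159 and miR390 with 3 of 35 each. Over the whole list, 35 of the 902 target genes with FPKM values were in the top 200. The 30 listed targets within 4-fold held 4.47% of the sum in PN and 4.76% in PD. Of these 30, 16 were higher and 14 lower in PN. Within 2-fold lay 72.5% of the members and 25 of the 30 listed targets (83.3%), beside 83.9% of all genes compared. Within 1.25-fold lay 32.0% of the members and 2 of the 30 listed targets (6.67%), beside 37.3% of all genes compared. Of the genes compared that met the same ratio and target rules as the members, 86.1% lay within 2-fold and 38.3% within 1.25-fold. The listed targets here are only 30 genes, no difference was tested, and nothing is read from these counts.

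By ID, 150 members carry the prefix Gb and 3 (1.96%) do not, against 5.22% of the genes compared. Novel00190 and Novel00487 (1128 FPKM in PN and 501 FPKM in PD) were higher in PN, and Novel00930 (488 FPKM in PN and 888 FPKM in PD) was lower. Novel00487 and Novel00930 were named because so few members lack the prefix, after their values were seen.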

How the data were processed

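FPKM values, 1 per gene and library, were computed by the authors, per the file headers. The submitters' processing notes list Bowtie, TopHat, TopHat2 2.0.12 and Cufflinks 2.1.1 without giving their steps. The sources used here do not give the genome build, annotation, filters or any removal of rRNA. Of 4 columns of values, 2 share 1 name and match no sample alone, so these 2 were not used in any step. FPKM gives no absolute depth, so no counting interval was computed. The deposited target list is a list of miRNA names beside gene IDs, without values. Families group names with the same number, whatever suffix follows it.

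The members were ranked by the mean of both libraries. Shares, the Gini coefficient and the inverse Simpson index were computed with Python 3.11.15, numpy 2.4.6 and pandas 2.3.3, and checked on simulated data. Differences used a pseudocount of 1 and, for the background, genes averaging 1 FPKM or more. Named genes were the 5 most abundant members, the 2 with the largest difference each way and those at the limits. The members and lists were chosen with earlier results of these data known. The limma test planned for replicates was not run, since 1 column per stage was matched.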

Additional observations from a re-analysis of the deposited data

How the results depend on the processing

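Each of 8 results was recomputed under 11 alternatives. With no replicates, a value was taken as moved when it changed by more than 1.5 times, or by more than 0.1 for the median difference. By this measure 73 of 88 values did not move. Some of these could hardly do so: a pseudocount of 0.1 left the members' shares as reported. The median difference stayed above 0 under all 11. The members' share was smaller in PN than in PD under 10 alternatives, and larger under 1, without the most abundant member (19.8% in PN and 17.4% in PD). The 10 all kept that member, whose difference of -4.71 percentage points exceeded the -2.30 of all members. Their direction was thus largely set in advance. By construction, the number ranked set the counts: the top 100 genes gave 76 members (53 within 2-fold, 49 higher in PN) and the top 400 gave 315 (231 within 2-fold, 200 higher in PN). The effective number in PN and PD was 10.6 and 4.63 with the top 100, 31.1 and 10.6 with the top 400, and 97.6 and 86.5 without the most abundant member, and 11.4 in PN with ratio limits of 0.5 and 2. Median-of-ratios scaling gave a median difference of 0.10. Over all alternatives the share ran from 19.2% to 33.3% in PN and from 17.4% to 34.1% in PD. No paired analysis was possible because the column names identify a single library of each stage. For the same reason the fits without each replicate were not run.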
